A study of Mus musculus with 2 samples.

Results

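C1qa, C1qc, Lyz2 and Fcgr3 are genes of the innate immune system that in the brain are known chiefly from microglia and other macrophages. They were picked by symbol, with earlier results of these data in view, as 4 of the 2381 loci that the authors listed as different between cortex lacking Trrap and its control. Their values in that contrast are what chose them, so they are given here as a description, with no test. Trrap is a large adaptor protein that histone acetyltransferase complexes share. RNA sequencing was done on mouse embryonic cortex at E14.5 on a B6/129 background, with 1 library for each genotype. The Trrap-deleted library came from embryos with both Trrap alleles floxed (TrrapF/F NestinCre+). The control was entered as wild type, but its description makes it a heterozygote (TrrapF/+ NestinCre+), so both carried Nestin-Cre, which is active in the neural lineage. The number of embryos behind each library and their sex are not stated. The series asked how gene transcription differs between these genotypes.

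C1q is the recognition molecule of the classical complement pathway. It is built from A, B and C chains encoded by neighbouring genes, and it tags immune complexes, dying cells and, in the developing brain, synapses for uptake. Lyz2 encodes lysozyme M, a bacteriolytic enzyme of macrophages and granulocytes, and Fcgr3 encodes the activating receptor for IgG, Fc gamma RIII, on macrophages, granulocytes and natural killer cells. Microglia, the macrophages of brain tissue, arise from yolk-sac progenitors, outside the neural lineage.

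The upstream sequences of these genes are shown because the genes were listed in the same direction, and because PU.1, the transcription factor on which macrophages depend, recognises purine-rich sites around a GGAA core. RefSeq windows (GRCm38.p6) running from 250 bases before to 50 bases after a start site were at hand for 3 of the 4 genes, and the neighbouring C1qb was added. Capitals mark the letters GAGGAA or GGAAGT on either strand; where the motifs overlap, as in C1qc, their shared letters form 1 run.
C1qc promoter, chr4:136892865-136893164, minus strand: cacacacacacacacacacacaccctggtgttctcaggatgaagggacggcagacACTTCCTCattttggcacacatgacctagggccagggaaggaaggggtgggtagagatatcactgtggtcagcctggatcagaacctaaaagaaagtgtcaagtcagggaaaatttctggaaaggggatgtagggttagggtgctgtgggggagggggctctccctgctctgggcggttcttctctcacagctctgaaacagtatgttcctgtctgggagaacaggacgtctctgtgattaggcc
C1qb promoter, chr4:136886151-136886450, minus strand: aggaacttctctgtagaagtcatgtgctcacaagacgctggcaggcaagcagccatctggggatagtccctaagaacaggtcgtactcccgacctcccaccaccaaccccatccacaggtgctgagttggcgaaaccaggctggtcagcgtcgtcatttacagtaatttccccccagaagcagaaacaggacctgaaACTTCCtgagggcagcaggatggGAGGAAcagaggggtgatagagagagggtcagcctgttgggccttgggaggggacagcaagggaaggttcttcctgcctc
Lyz2 promoter, chr10:117282223-117282522, minus strand: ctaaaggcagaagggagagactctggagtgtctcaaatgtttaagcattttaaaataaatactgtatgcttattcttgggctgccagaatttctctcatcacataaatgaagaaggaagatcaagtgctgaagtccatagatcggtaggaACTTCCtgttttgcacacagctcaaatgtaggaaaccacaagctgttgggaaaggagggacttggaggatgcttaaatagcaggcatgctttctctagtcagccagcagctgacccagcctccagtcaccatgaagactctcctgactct
Fcgr3 promoter, chr1:171059354-171059653, minus strand: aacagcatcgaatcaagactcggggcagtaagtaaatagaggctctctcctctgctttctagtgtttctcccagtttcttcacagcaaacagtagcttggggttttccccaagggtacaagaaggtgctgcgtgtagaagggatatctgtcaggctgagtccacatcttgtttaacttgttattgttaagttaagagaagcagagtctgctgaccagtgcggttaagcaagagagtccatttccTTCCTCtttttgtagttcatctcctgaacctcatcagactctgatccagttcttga

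The C1qc window held both motifs overlapping in 1 stretch, whose first base lay at -195 from the start site. The C1qb window held both motifs apart, GGAAGT from -53 and GAGGAA from -30. Lyz2 held GGAAGT alone, from -100, and Fcgr3 held GAGGAA alone, from -6. Counted from another start site of Fcgr3, whose window is not shown, the same match lay at -15. Either motif is common: GAGGAA was found in 28.3% and GGAAGT in 23.8% of all 32851 RefSeq windows, and at least 1 of them in 43.4%. Among the listed microglia and macrophage genes described below, 8 of the 10 with a window held at least 1 of the motifs, against 667 of 1467 listed symbols of the table with a window (45.5%). The 10 include C1qc, C1qb, Lyz2 and Fcgr3, shown above, and their list was written with the earlier microglial result known. Whether the shares differ was not tested. These are matches of letters, and no binding was measured.

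All 4 genes were listed as higher in the Trrap-deleted cortex, and all 4 were weakly expressed in both libraries. The values are FPKM as deposited by the authors, that is, fragment numbers per unit of transcript length and of sequencing, so levels can be set side by side between genes. There is no replicate library and the sequencing depth is unknown, so no value below has an error. More cells of a type and more RNA per cell cannot be told apart in bulk tissue. Of the 2376 rows without a 0, 58.0% were higher in the Trrap-deleted library and 25.3% were at least 2-fold higher. Of the 662 rows with a mean under 5 FPKM, where the 4 genes lie, 76.7% were higher and 60.7% at least 2-fold higher, so a weak locus in this table is mostly one with a large increase. All 4 genes were past 2-fold, and nothing is read from that count.

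**Figure D1:**
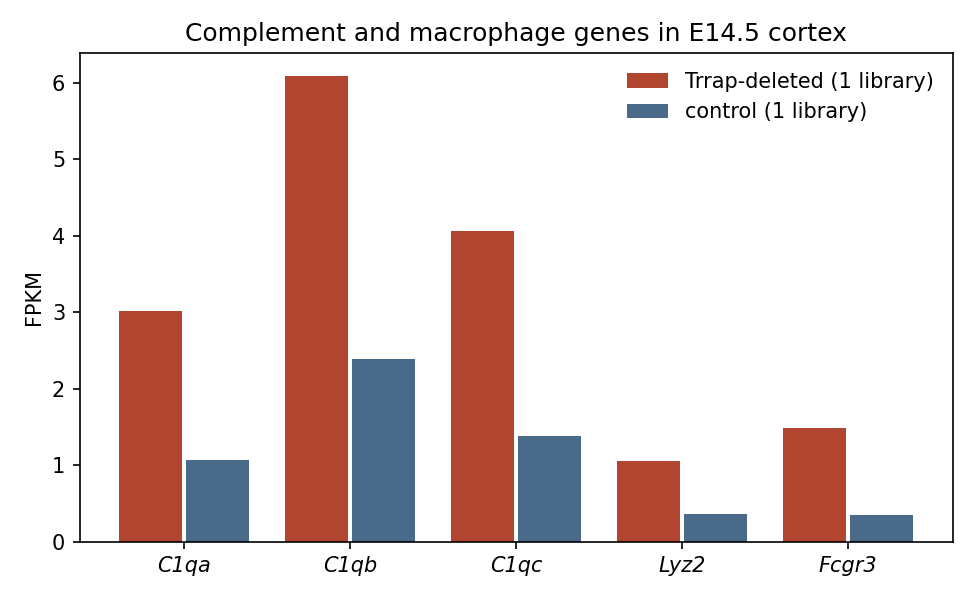
FPKM (vertical axis, from 0) of the 4 genes and of C1qb, the third C1q chain gene, in the Trrap-deleted library (left bar of each pair) and the control library (right bar). Each bar is 1 library, with no error; every Trrap-deleted bar is above its control bar, and C1qb is the most abundant of the 5 in both libraries.

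The C1q genes were higher together. C1qa, the A chain gene (XLOC_027325, chromosome 4, 136451832 to 136454718, mm9), had 3.02 FPKM in the Trrap-deleted library, against 1.07 FPKM in the control library, a ratio of 2.83-fold (log2 1.50). C1qc, the C chain gene (XLOC_027324, chromosome 4, 136445719 to 136448980), had 4.07 FPKM in the Trrap-deleted library, against 1.38 FPKM in the control library, 2.94-fold (log2 1.56). C1qb, the B chain gene (XLOC_027323, chromosome 4, 136436044 to 136442102), had 6.09 FPKM in the Trrap-deleted library, against 2.39 FPKM in the control library, 2.55-fold (log2 1.35). The 3 protein-coding genes lie side by side on the minus strand within 18675 bp, with gaps of 3616 bp between C1qb and C1qc and 2851 bp between C1qc and C1qa, and no other listed locus lies between them. The authors' deposited table gives q-values of 0.000657 for C1qa, 3.92e-05 for C1qc and 0.000121 for C1qb. With 1 library per genotype, these and the q-values below do not measure variation between libraries of a genotype.

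The balance of the C1q chain transcripts was nearly alike in the libraries. C1qb made up 46.2% of the summed C1q FPKM in the Trrap-deleted library and 49.4% in the control library. C1qc made up 30.9% in the Trrap-deleted library and 28.6% in the control library. C1qa made up 22.9% in the Trrap-deleted library and 22.1% in the control library. The B chain transcript was thus the most abundant and the A chain transcript the least abundant in both, and the sum of the 3 stood at 13.2 FPKM in the Trrap-deleted library, against 4.84 FPKM in the control library (2.72-fold).

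Few other complement genes were listed. Of 58 symbols of the complement system, 6 were listed and all 6 were higher, beside 58.0% of all 2376 rows without a 0. The C1q genes, 2 of them chosen for this contrast, are 3 of the 6, and the other 3 had a median log2 ratio of 1.20, beside 0.55 over all 2306 listed symbols. C3ar1, the receptor for the C3a fragment, had 0.624 FPKM in the Trrap-deleted library, against 0.182 FPKM in the control library (3.43-fold). Clu, which encodes clusterin, a secreted chaperone that inhibits the terminal complement complex and is also a marker of astroglia, had 34.6 FPKM in the Trrap-deleted library, against 15.01 FPKM in the control library (2.30-fold). Susd4, a membrane regulator of complement, had 7.97 FPKM in the Trrap-deleted library, against 5.04 FPKM in the control library (1.58-fold). The other listed members were the C1q genes. The proteases that C1q activates (C1ra, C1s and their copies), the components that these cleave (C2, C4a and C4b) and C3 were not listed, and neither were Itgam and Itgb2, which encode the complement receptor CR3. A gene that is not listed may be unexpressed or may have missed the authors' threshold, and the table does not tell these apart.

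Fcgr3 had the largest ratio of the 4 genes as deposited, but not with a pseudocount of 1 FPKM, where its log2 ratio was 0.88, below 1.09 for C1qc and 0.96 for C1qa. Fcgr3 (XLOC_001785, chromosome 1, 172981300 to 172995066) had 1.49 FPKM in the Trrap-deleted library, against 0.357 FPKM in the control library, 4.18-fold (log2 2.06). The authors' deposited table gives it a q-value of 0.0246, the highest of the 4. Its ratio ranked 95th from the top among the 2306 symbols, while C1qc ranked 249th, Lyz2 250th and C1qa 270th. Of 37 symbols of Fc receptors and the signalling through their activation motif, 4 were listed and all were higher. Of all rows with a mean under 5 FPKM, where these lie, 76.7% were higher. The listed symbols are no separate group: Fcgr3 is 1 of them, and Tyrobp and Fcrls belong to the macrophage list below as well. Only Plcg2 lies outside it. Its log2 ratio of 1.06 was below 1.52, the median of all symbols in the weakest of 10 groups by mean FPKM. Tyrobp, the signalling adaptor DAP12 of Trem2 and related receptors, had 5.21 FPKM in the Trrap-deleted library, against 2.26 FPKM in the control library. Fcrls, an Fc receptor-like gene used as a microglial marker in mouse, had 3.24 FPKM in the Trrap-deleted library, against 1.03 FPKM in the control library. Plcg2, a phospholipase downstream of these receptors, had 0.419 FPKM in the Trrap-deleted library, against 0.201 FPKM in the control library. Fcer1g, the signalling chain that Fc gamma RIII needs at the cell surface, was not listed, nor were the other IgG receptors Fcgr1, Fcgr2b and Fcgr4.

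Lyz2 was the weakest of the 4 in the Trrap-deleted library. Lyz2 (XLOC_003695, chromosome 10, 116714390 to 116719377) had 1.06 FPKM in the Trrap-deleted library, against 0.359 FPKM in the control library, 2.94-fold (log2 1.55). The authors' deposited table gives it a q-value of 0.0106. Lyz2 was the only listed symbol of 20 in a list of lysozymes and granulocyte genes, so the granule genes Mpo, Elane, S100a8 and S100a9 were not listed. In order of level, C1qc came first, then C1qa, Fcgr3 and Lyz2 in the Trrap-deleted library, and C1qc, C1qa, Lyz2 and Fcgr3 in the control library, where the last pair lay at 0.359 and 0.357 FPKM. With no replicate, it is not known which neighbours in these orders differ. Lyz2 stood at 0.259 of the level of C1qc in the Trrap-deleted library and 0.260 in the control library, whereas Fcgr3 stood at 0.367 of C1qc in the Trrap-deleted library and 0.258 in the control library.

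Lyz2 and Fcgr3 have close copies in the genome, and their values are less certain than those of the C1q genes for that reason. Of the 36-base windows along the longest coding GENCODE M21 transcript, 27.3% for Lyz2 also occur exactly in Lyz1, the neighbouring lysozyme gene, and 15.9% for Fcgr3 also occur in Fcgr2b, the inhibitory IgG receptor gene. For 76-base windows the shares were 5.80% for Lyz2 and 7.23% for Fcgr3. None of the 36-base windows of C1qa, C1qb or C1qc occurred in another gene. The sources used here state neither the read length nor how reads from copies were assigned. The loci in the table had the annotated gene length for C1qa (2887 bp), C1qb (6059 bp) and C1qc (3262 bp), and lay within a few bases of it for Lyz2 (4988 bp, annotated 4991 bp) and Fcgr3 (13767 bp, annotated 13762 bp).

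The 4 genes sat among other macrophage genes that were also higher. Of 60 symbols of microglia and macrophages, 15 were listed and all 15 were at least 2-fold higher in the Trrap-deleted library; the median log2 ratio was 1.42 (2.67-fold) and the ratios ran from 2.20-fold to 4.18-fold. Of all rows with a mean under 5 FPKM, where most of the 15 lie, 60.7% were at least 2-fold higher. Nothing is read from the count for that reason. Without the 4 genes, the other 11 had a median of 2.47-fold. This list was written with the earlier microglial result known, so its direction is no independent evidence. Their summed FPKM was 50.1 in the Trrap-deleted library and 19.4 in the control library, and 14 of the 15 reached 1 FPKM in the higher library.

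**Figure D2:**
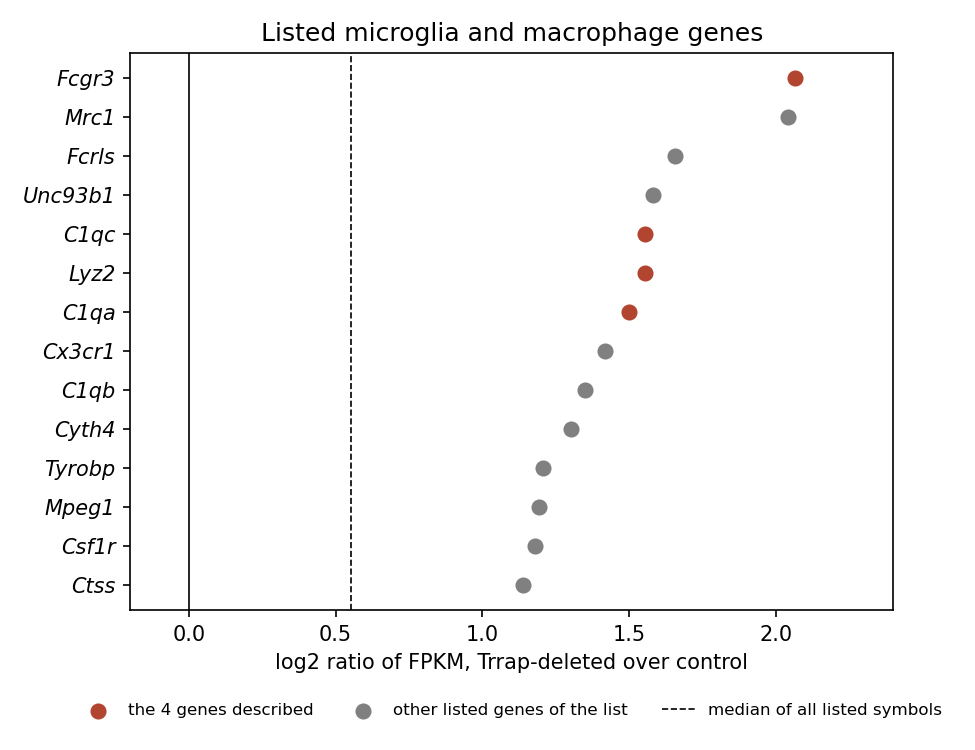
Log2 ratio of FPKM, Trrap-deleted over control (horizontal axis), of 14 of the 15 listed genes of the microglia and macrophage list, 1 library per genotype; the solid line is 0 and the dashed line the median of all listed symbols, 0.55. All 14 points lie right of the dashed line, from Ctss at 1.14 to Fcgr3 at 2.06; the median log2 ratio of symbols of like level was itself higher than the dashed line, at 1.52, 1.25 and 0.86 in the 3 weakest of 10 level groups, and Ctss, Mpeg1 and Cyth4 lie below the median of their own level.

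Genes of microglia and of macrophages at large were among them. Csf1r, the receptor for the survival signals CSF1 and IL-34, had 4.04 FPKM in the Trrap-deleted library, against 1.78 FPKM in the control library (2.27-fold). Cx3cr1, the fractalkine receptor, had 3.15 FPKM in the Trrap-deleted library, against 1.18 FPKM in the control library (2.67-fold). The locus of Csf1r (71479 bp, annotated 31552 bp) in the table is longer than the gene and that of Cx3cr1 (19590 bp, annotated 168264 bp) is shorter, so these values may cover other or fewer transcripts than the symbol says. Mrc1, the mannose receptor of macrophages, had 0.860 FPKM in the Trrap-deleted library, against 0.209 FPKM in the control library (4.11-fold), the largest ratio after that of Fcgr3. Ctss, the lysosomal protease cathepsin S, had 3.45 FPKM in the Trrap-deleted library, against 1.57 FPKM in the control library (2.20-fold), the smallest ratio of the 15. Also listed were Mpeg1, the pore-forming perforin-2 of macrophages (2.29-fold), Cyth4, an exchange factor of blood cells (2.47-fold), and Unc93b1, which carries Toll-like receptors to endosomes (2.996-fold). Aif1, Trem2, P2ry12, Tmem119, Spi1, which encodes PU.1, and the macrophage genes Pf4, Lyve1 and Cd163 were not listed.

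**Figure D3:**
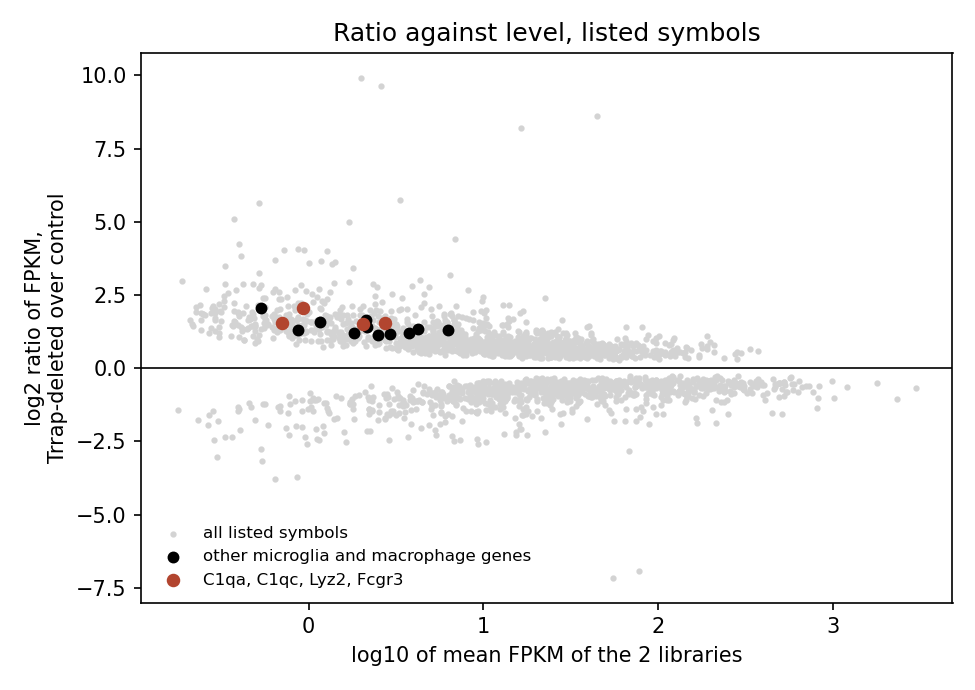
Log2 ratio of FPKM, Trrap-deleted over control (vertical axis), against log10 of the mean FPKM of the libraries (horizontal axis); grey points are the 2306 listed symbols, black points the other 11 listed microglia and macrophage genes, and red points the 4 genes described. The red and black points lie at the weak end, inside the upper band of grey points; the empty band around 0 widens towards weak loci, where smaller differences were not listed.

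The ratios of the 4 genes lay on both sides of the medians of the higher loci of like level. With the symbols in 10 equal groups by mean FPKM, Lyz2 and Fcgr3 fell in the weakest group, in which 81.8% of 231 symbols were higher, with a median of 3.18-fold among those. Lyz2 lay below that median and Fcgr3 above it. C1qa and C1qc fell in the next group, in which 76.2% of 231 symbols were higher, with a median of 2.65-fold among those, and both lay above it. Across the 2 libraries, the symbols nearest to each gene by distance on log2 FPKM were Ptpre, Nudt7 and Adcy2 for C1qa (distances 0.033 to 0.079), Thpo, Tmem176a and Snx7 for C1qc (0.086 to 0.11), Ppp1r3d, Shpk and E130003G02Rik for Lyz2 (0.051 to 0.072), and Syne1, Lpxn and Caln1 for Fcgr3 (0.059 to 0.18). With only 2 libraries, nearness means a like level and a like ratio and nothing more.

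Few genes of blood cells at large were listed, 4 of 32 symbols, all higher, with a median log2 ratio of 1.18. Of all rows with a mean under 5 FPKM, where these blood cell genes lie, 76.7% were higher. Each of them lay below the median log2 ratio of all symbols of like level. That median was 1.52 in the weakest of the 10 groups (Nckap1l, Rac2 and Cd53) and 1.25 in the next (Itga4). Nckap1l, a regulator of actin in blood cells, had 1.13 FPKM in the Trrap-deleted library, against 0.470 FPKM in the control library. Rac2, a small GTPase of blood cells, had 0.693 FPKM in the Trrap-deleted library, against 0.290 FPKM in the control library. Cd53, a leukocyte tetraspanin, had 0.654 FPKM in the Trrap-deleted library, against 0.305 FPKM in the control library. Itga4, an integrin subunit of blood cells and other cells, had 3.19 FPKM in the Trrap-deleted library, against 1.81 FPKM in the control library, at a locus longer than the gene (205768 bp, annotated 77698 bp). None of 26 lymphoid and mast cell genes and none of 18 antigen presentation genes was listed, and Ptprc, the pan-leukocyte gene CD45, was not listed either.

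Phagocytic and lysosomal genes were mostly higher, at much higher levels than the macrophage genes. Of 50 symbols 11 were listed, 10 higher and 1 lower, or 9 higher after rescaling the libraries to a median log2 ratio of 0, where Npc1 changed sign. The median log2 ratio was 0.80, beside 0.55 over all 2306 listed symbols. Of all 2376 rows without a 0, 58.0% were higher. Ctsd, also in this list, shares a row with another symbol and was left out of these counts. That row had 81.9 FPKM in the Trrap-deleted library, against 45.8 FPKM in the control library. Psap, the precursor of the saposins that activate lysosomal lipid breakdown, had 260 FPKM in the Trrap-deleted library, against 121 FPKM in the control library. Ctsb, the protease cathepsin B, had 57.5 FPKM in the Trrap-deleted library, against 24.8 FPKM in the control library, at a locus longer than the gene (55329 bp, annotated 23462 bp). Npc2, the lysosomal cholesterol carrier, was the exception, with 16.8 FPKM in the Trrap-deleted library, against 32.3 FPKM in the control library. Of the 11, 2 are in the macrophage list as well, Ctss among them, and neural cells also express most of the others.

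Signals and factors that act on macrophages did not share a direction. Csf1, a ligand of Csf1r, had 4.75 FPKM in the Trrap-deleted library, against 2.20 FPKM in the control library, while Il34, the other ligand, and the fractalkine gene Cx3cl1 were not listed. Of 15 symbols of signals from neural cells to microglia, a list that also holds a chemokine receptor gene, 2 were higher and 4 lower. The higher ones were Csf1 and the chemokine gene Cxcl12, which is in the meningeal and mesenchymal list below as well. Cd24a, a surface glycoprotein of young neurons, had the largest ratio among the lower ones, with 92.03 FPKM in the Trrap-deleted library, against 335 FPKM in the control library. St8sia2, a polysialic acid synthase, had 9.49 FPKM in the Trrap-deleted library, against 26.4 FPKM in the control library. Of 27 symbols of myeloid growth factors and transcription factors, 3 were listed, 2 higher (Csf1r and Csf1) and 1 lower.

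**Figure D4:**
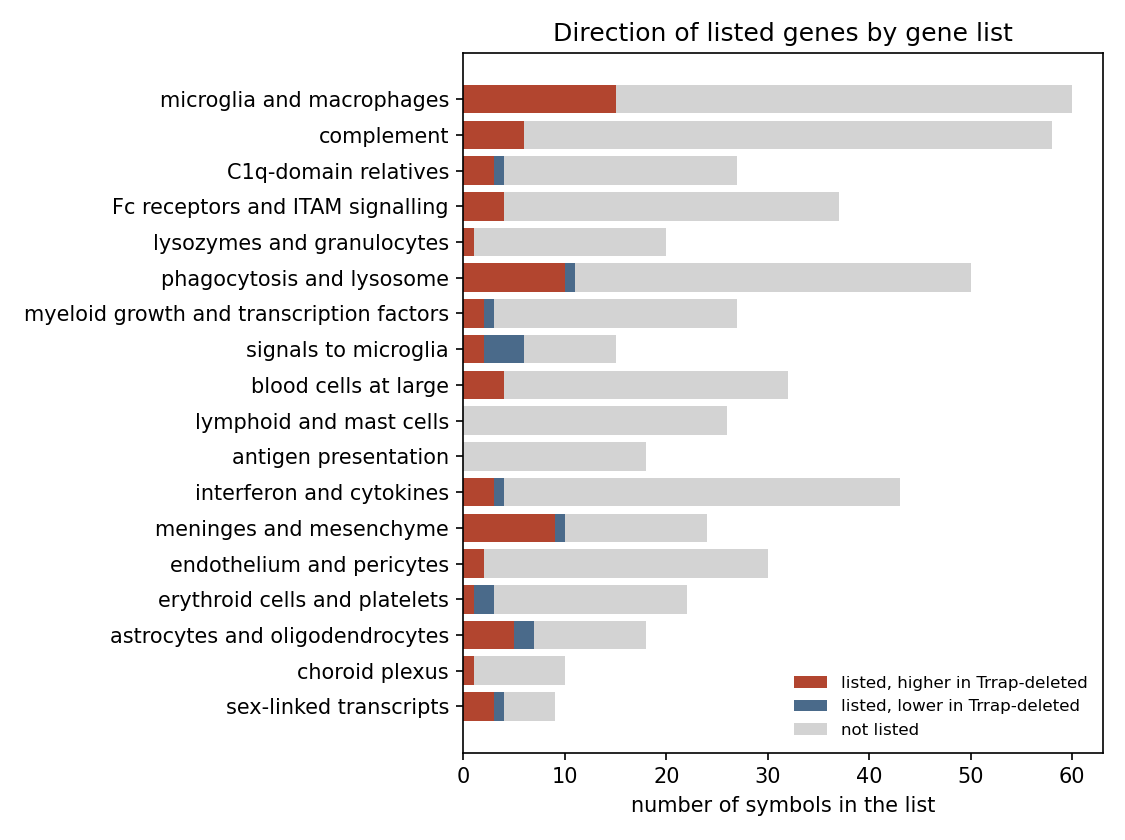
Number of symbols (horizontal axis) in each of 18 gene lists that were listed higher in the Trrap-deleted library (red), listed lower (blue) or not listed (grey), 1 library per genotype. All listed symbols of the microglia and macrophage (15), complement (6) and Fc receptor (4) lists, which share genes, are red. The same holds for the blood cell (4), endothelial and pericyte (2), lysozyme (1) and choroid plexus (1) lists. Of all 2376 rows without a 0, 58.0% were higher, and of the 662 with a mean under 5 FPKM, 76.7%. Most symbols of each list are grey.

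Other cell type markers and sex-linked transcripts differed along with the macrophage genes. Of all 2376 rows without a 0, 58.0% were higher, and of the 662 with a mean under 5 FPKM, 76.7%. Of 24 meningeal and mesenchymal symbols 10 were listed, 9 higher and 1 lower, with a median log2 ratio of 2.12, and their summed FPKM was 48.996 in the Trrap-deleted library and 33.6 in the control library. The largest ratios were those of the matrix genes Lum, with 1.02 FPKM in the Trrap-deleted library and 0.0203 FPKM in the control library, Col1a1, with 1.37 FPKM in the Trrap-deleted library and 0.0825 FPKM in the control library, and Col1a2, with 2.50 FPKM in the Trrap-deleted library and 0.210 FPKM in the control library. The pericyte genes Pdgfrb and Cspg4 were the only listed ones of 30 endothelial and pericyte symbols, both higher, with a sum of 4.24 FPKM in the Trrap-deleted library and 2.07 FPKM in the control library. Of 22 erythroid and platelet symbols 3 were listed, 1 higher (Hbb-y) and 2 lower (Tfrc and Add2), with a sum of 188 FPKM in the Trrap-deleted library and 154 FPKM in the control library. Of 18 astrocyte and oligodendrocyte symbols 5 were higher and 2 lower. Those with the largest ratios were Aldh1l1 (higher) and Olig2 and Gja1 (lower), and the list summed to 123 FPKM in the Trrap-deleted library and 75.2 FPKM in the control library. Ttr was the only listed choroid plexus gene of 10, with 3.31 FPKM in the Trrap-deleted library and 0.104 FPKM in the control library, at a locus of 116251 bp, against 9042 bp for the annotated gene, which makes the value uncertain. Rows with a 0, 4 in the control library and 1 in the Trrap-deleted library, were left out before the lists were matched. A marker at 0 in either library could therefore not appear in these counts. The Y-linked genes Eif2s3y, Ddx3y and Kdm5d were present in the Trrap-deleted library and near 0 in the control library. Xist had 142 FPKM in the Trrap-deleted library and 313 FPKM in the control library. By these transcripts the libraries differ in the sex make-up of their embryos, which the labels do not give. The part of these differences in the macrophage result was not tested, and with 1 library per genotype it cannot be told apart from genotype.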

How the data were processed

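RNA was sequenced from 2 samples of embryonic cortex, 1 per genotype. Per the labels' protocols, libraries were made with a TruSeq RNA kit from 2.5 µg of total RNA. The submitters' processing notes name TopHat2 and mm9. The notes and labels do not say how reads were counted and tested or whether strand was used. The deposited table has Cuffdiff's layout, and its values were read as FPKM from that layout. It holds 2381 loci marked significant by the authors, with a highest q-value of 0.04998 against a threshold of 0.05. The p-value and q-value columns are the authors' deposited values. The authors' deposited log2 fold change (another column, with no finite value where 1 library is at 0) matched log2 of KO over CONTROL to within 1.18e-05. The authors' deposited test statistic was not used.

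From these, ratios were computed with no pseudocount (Python 3.11.15, pandas 2.3.3, NumPy 2.4.6), and coordinates were moved to 1-based counting. Gene lists used 1 row per symbol (2306 symbols). Left out were 59 rows with several symbols and the rows with a 0 in either library. No test between genotypes was possible. The 4 genes and the 18 lists (482 symbols) were chosen with earlier results of these data known. The genes named were the 4, every listed gene of the macrophage, complement, Fc receptor, lysozyme, blood cell and C1q-domain lists, the 3 largest ratios of each other list, and the 3 nearest symbols to each of the 4; further genes, those named as not listed included, were named after the table was seen. A few genes that this rule names are not reported here, though counts, medians and sums include them. Summary code was tested on simulated data. Alternatives covered pseudocounts, scaling, filters and the q-value threshold. Depth is unknown, so no counting interval was set.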

Additional observations from a re-analysis of the deposited data

How the results depend on the processing

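All 4 genes stayed higher in the Trrap-deleted library after rescaling to a median log2 ratio of 0, the only alternative that could have changed their direction. A pseudocount cannot change a direction, and rescaling to equal summed FPKM raises every log2 ratio, so these show only how far the ratios move. With a pseudocount of 0.1 FPKM the log2 ratios were 1.42 for C1qa, 1.49 for C1qc, 1.33 for Lyz2 and 1.80 for Fcgr3, and with 1 FPKM they were 0.96 for C1qa, 1.09 for C1qc, 0.60 for Lyz2 and 0.88 for Fcgr3, so the order of the genes changed with both: Lyz2 came below C1qa with 0.1 FPKM, and with 1 FPKM C1qc had the largest ratio. Rescaling the libraries to a median log2 ratio of 0, a shift of 0.54, gave 0.96 for C1qa, 1.01 for C1qc, 1.01 for Lyz2 and 1.52 for Fcgr3. Rescaling to equal summed FPKM gave 1.85 for C1qa, 1.90 for C1qc, 1.90 for Lyz2 and 2.41 for Fcgr3. The median log2 ratio of the microglia and macrophage list was 0.88 and 1.77 under these rescalings, 1.38 with at least 1 FPKM in the higher library and 1.35 at a q-value under 0.01, where 9 of the 15 genes were left, all higher. The complement median was 0.88 and 1.77 under the rescalings, 1.35 with at least 1 FPKM and 1.53 at a q-value under 0.01. The share of rows higher was 50.0% after rescaling to a median of 0, by construction. At a q-value under 0.01, 2 of the 4 genes were left, C1qa and C1qc. No paired analysis was possible because each genotype had 1 library, and for the same reason no replicate could be left out.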

Other observations

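Relatives of C1q that share its globular domain but act at synapses were listed too. Of 27 symbols 4 were listed, 3 higher and 1 lower. Of all rows with a mean under 5 FPKM, where these lie, 76.7% were higher. C1ql3, a secreted synaptic organiser, had 1.91 FPKM in the Trrap-deleted library, against 0.620 FPKM in the control library (3.07-fold), at a locus of 87707 bp, against 8350 bp for the annotated gene, which makes the value uncertain. The cerebellin gene Cbln2, whose product bridges neurexins and glutamate delta receptors, had 4.95 FPKM in the Trrap-deleted library, against 2.42 FPKM in the control library (2.04-fold). Its relative Cbln3 had 0.766 FPKM in the Trrap-deleted library, against 0.303 FPKM in the control library (2.53-fold). Cbln1 was lower, with 2.16 FPKM in the Trrap-deleted library, against 4.33 FPKM in the control library. The directions were unchanged by both rescalings.

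Few genes of interferon response and cytokines were listed, 4 of 43, of which 3 were higher and 1 lower. Of all 2376 rows without a 0, 58.0% were higher. Bst2, the antiviral protein tetherin, had 1.55 FPKM in the Trrap-deleted library, against 0.420 FPKM in the control library. Tlr2, a receptor for bacterial lipoproteins, had 0.604 FPKM in the Trrap-deleted library, against 0.242 FPKM in the control library. The inflammatory cytokine genes Tnf, Il1b and Il6 were not listed.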
